A study of Danio rerio with 6 samples.

Results

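The genes described here encode potassium, sodium and calcium channels and their accessory subunits, measured in caudal fins of zebrafish larvae that had been swim-trained or left untrained. They are the genes whose RefSeq symbol starts with kcn, with scn and a digit, or with cacn. The reference table holds 192 such symbols, of which 86 were named on a probe of the array. A probe was kept when the scanner software called it well above background on all 6 arrays in the control channel or on all 6 in the trained channel, and the brightest kept probe stood for the gene. That left 22 channel genes among 15781 genes tested. The rule takes in families that are not opened by voltage, among them the inward rectifiers (kcnj), the tandem-pore leak channels (kcnk) and accessory subunits, so the 22 are called channel genes below.

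Wildtype larvae were trained from 5 to 10 days post fertilisation in daily sessions of 3 h, and fins of trained and untrained larvae were taken at 10 days. RNA was pooled from the fins of 15 larvae at a time, which gave 2 untrained pools (C2, C3) and 2 trained ones (T2, T3), all of wildtype fish. Pool T2 was hybridised against C2 (pair 2) on 4 arrays and T3 against C3 (pair 3) on 2 arrays, with the dyes swapped between arrays so that each orientation was used equally often in a pair. Since arrays of one pair read the same RNA, the pair is the replicate (n = 2). What a pool number stands for is not given in the labels. A whole fin holds skin, muscle, nerve and other tissue, and in pooled fins fewer cells of a type and less RNA per cell cannot be told apart.

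Voltage-gated sodium channels start the action potential, potassium channels end it and set the resting potential, and calcium channels turn the voltage change into contraction or transmitter release. Each is a pore-forming subunit with accessory subunits that place it in the membrane and tune its gating. In fins these genes have a second interest. Zebrafish with a misexpressed kcnh2a (longfin) or an overactive kcnk5b grow overlong fins, and kcnj13 is known for mutants with altered stripes and fin growth, so potassium flux is held to take part in setting fin size.

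Few of these genes could be measured well in the fin. The 22 kept genes were 25.6% of the 86 on the array, where 71.7% of all 12900 genes with a symbol were kept. Of the genes listed as muscle channels, 6 of 9 were kept. Of those listed as nerve channels, 14 of 36 were kept, and of the channel genes on neither list, 2 of 41. By family, all 5 calcium channel gamma genes passed, as did 3 of 5 sodium channel beta genes, 3 of 6 accessory potassium channel genes, 2 of 3 alpha2delta genes and 2 of 5 calcium channel pore genes. Among pore-forming potassium channels, 1 of 11 genes of the Kv1 to Kv4 families, 1 of 12 inward rectifiers and 2 of 12 tandem-pore genes passed. None passed of the 3 EAG-type (kcnh), 2 KCNQ, 6 modifier and 3 calcium- or sodium-activated genes.

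**Figure D1:**
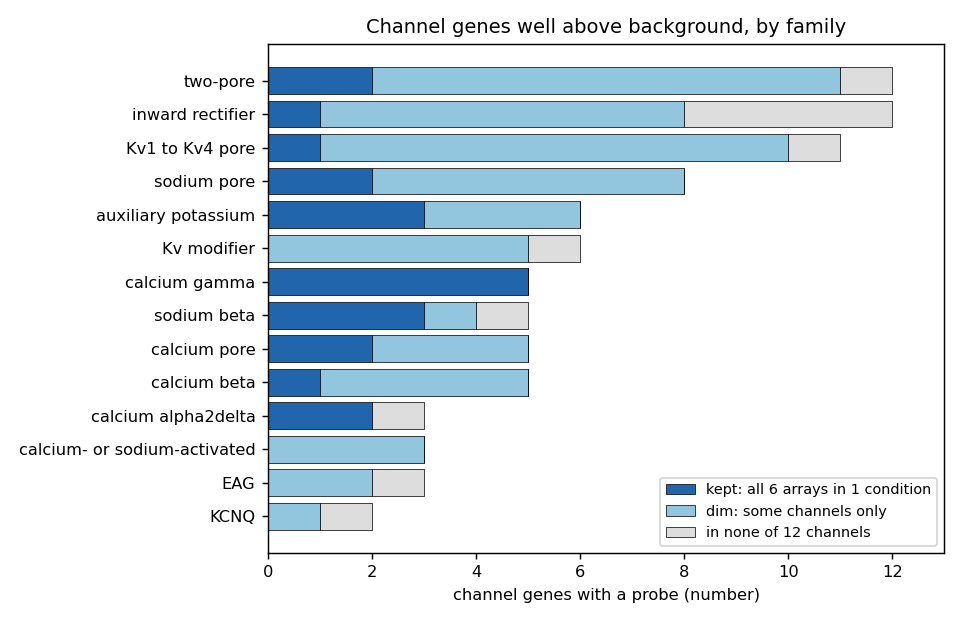
The number of channel genes with a probe on the array (horizontal axis) is shown for each family as bars split into genes well above background on all 6 arrays in at least 1 condition, genes above background in some of the 12 array channels, and genes above background in none. All 5 calcium channel gamma genes were kept, against 1 of 12 inward rectifiers.

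The 64 genes that were not kept were not all silent. Of these, 11 were above background in none of the 12 channels, 40 in 1 to 5 channels and 13 in 6 or more. The array with most of them above background was the technical repeat of pair 2 with trained RNA in Cy3, with 49 of the 64 in the control channel and 44 in the trained channel, and it was also the array with the largest share of all probes above background (79.8% and 81.2%). On the pair 3 array with trained RNA in Cy5 those counts were 7 and 3, with 55.7% and 54.3% of all probes. No comparison is given for a gene that fell short of the rule. The genes that came closest were kcna2b, a Kv1 channel of axons, cacnb2a, scn5lab, kcnk5a and kcnk6, each above background in 9 of 12 channels. Both genes of the muscle sodium channel fell short, scn4ab with 6 channels above background and scn4aa with 2, and so did cacnb1, the beta subunit of the muscle calcium channel, with 4.

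Of the 3 potassium channels tied to fin growth, kcnk5b alone was measured. The longfin gene kcnh2a was read by 2 probes and was above background on no more than 1 array in either condition, and kcnj13 was above background in none of the 12 channels. Neither gives a comparison between trained and control fins. The single kept probe of kcnk5b gave log2 ratios of trained over control of -0.032 and -0.17 on the pair 2 arrays with trained RNA in Cy5, of 0.012 and 0.13 on those with it in Cy3, and of -0.28 and -0.099 on the pair 3 arrays. The pair 2 arrays therefore lay on both sides of 0, with a sign that followed the dye, and both pair 3 arrays lay below it. Over the alternative settings the pair 3 value of kcnk5b ran from -0.39 to -0.099. The normalised log2 level of kcnk5b was 7.16 in C2, 7.14 in T2, 7.33 in C3 and 7.14 in T3, so the trained pools were alike and C3 was the highest. With no scaling between arrays that order was lost, with C3 minus C2 at -0.21 and T3 minus T2 at -0.38. Its mean log2 ratio over the pairs was -0.10 ± 0.17 (moderated SE, n = 2 pairs, limma adjusted p = 0.885), a difference smaller than its error.

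Genes that act with these channels in fin size were taken from a list of gap junction, cotransporter and calcineurin genes, of which 9 of 20 were tested. Of these, 0 passed at an unadjusted p under 0.05, and 5 lay above 0 and 1 below 0 in both pairs, where 36.6% and 24.7% of all genes did. Pair 2 gave these genes a median log2 ratio of 0.028 and pair 3 one of 0.11, beside 0.019 and 0.051 over all genes tested. The connexin gene gja1b, whose loss shortens zebrafish fins, had 0.030 in pair 2 and 0.57 in pair 3. The calcineurin regulator gene rcan2 had 0.037 and 0.50, and the calcineurin catalytic gene ppp3ccb had -0.0081 and -0.33. All 3 lay near 0 in pair 2 and further from it in pair 3.

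The comparison asked whether swim-training changed the expression of channel genes in the fin. No channel gene passed the test. By limma with Benjamini-Hochberg adjustment over all 15781 genes, 0 channel genes and 0 genes in all (0%) had an adjusted p under 0.05. At an unadjusted p under 0.05 there were 0 of 22 channel genes, where 3.99% of all genes tested lay. The lowest unadjusted p among the channel genes was 0.0789, for scn4ba (adjusted p = 0.752). With 2 pairs the test has 1 residual degree of freedom per gene, to which limma adds 4.14 drawn from all genes. A p above the threshold therefore does not show that trained and control fins were alike.

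The pairs gave different pictures. Of the 22, 13 had opposite signs in the pairs (38.7% of all genes), 5 were above 0 in both (36.6%) and 4 below 0 in both (24.7%). In pair 2, 9 of 22 were above 0 (56.6% of all genes), with a median log2 ratio of -0.022 and a range of -0.31 to 0.33. In pair 3, 14 of 22 were above 0 (55.3% of all genes), with a median of 0.20 and a range of -0.19 to 1.33. No channel gene was 1.5-fold apart in pair 2 (0.64% of all genes). In pair 3, 3 channel genes were at least 1.5-fold higher (13.2% of all genes) and 0 at least 1.5-fold lower (7.71%). A share of 3 in 22 is near that of all genes.

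**Figure D2:**
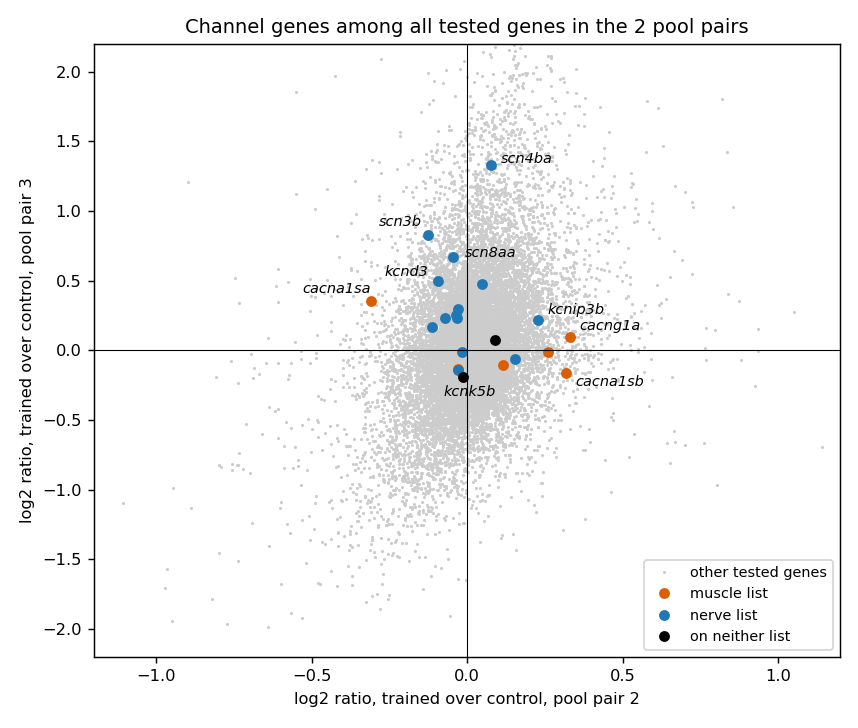
Each point is a gene, with its log2 ratio of trained over control in pair 2 on the horizontal axis and in pair 3 on the vertical axis. Grey points are the other tested genes, of which 41 lie outside the plotted range, and coloured points are the 22 channel genes by list. Nerve channels spread upwards along the pair 3 axis to 1.33 for scn4ba, and muscle channels spread along the pair 2 axis from -0.31 to 0.33.

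The medians of the muscle and nerve channels had opposite signs in each pair, a difference that was not tested. In pair 3 the opposite sign was lost where the muscle median turned positive, at 0.076 with processed signals or the deposited value table and 0.013 without background subtraction. The 6 muscle channels had a median log2 ratio of 0.19 in pair 2, with 4 of 6 above 0, and of -0.061 in pair 3, with 2 of 6 above 0. The 14 nerve channels had a median of -0.032 in pair 2, with 4 of 14 above 0, and of 0.24 in pair 3, with 11 of 14 above 0. Of these, scn4bb and scn8ab passed the rule through the trained channel alone, which favours a ratio above 0. Through the control channel alone passed kcnip1b and cacnb4b, which favours a ratio below 0. With the rule set on both channels 10 nerve channels were left, with medians of -0.041 and 0.28 and with 2 and 9 above 0. Within a pair every array gave the same order of the muscle and nerve medians, and that order was reversed between the pairs. The muscle median lay between 0.16 and 0.24 on the 4 arrays of pair 2 and at -0.00091 and -0.070 on those of pair 3. The nerve median lay between -0.065 and 0.0071 on the arrays of pair 2 and at 0.29 and 0.25 on those of pair 3. Over both pairs the medians came to 0.051 for muscle and 0.12 for nerve, beside 0.040 for all genes.

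**Figure D3:**
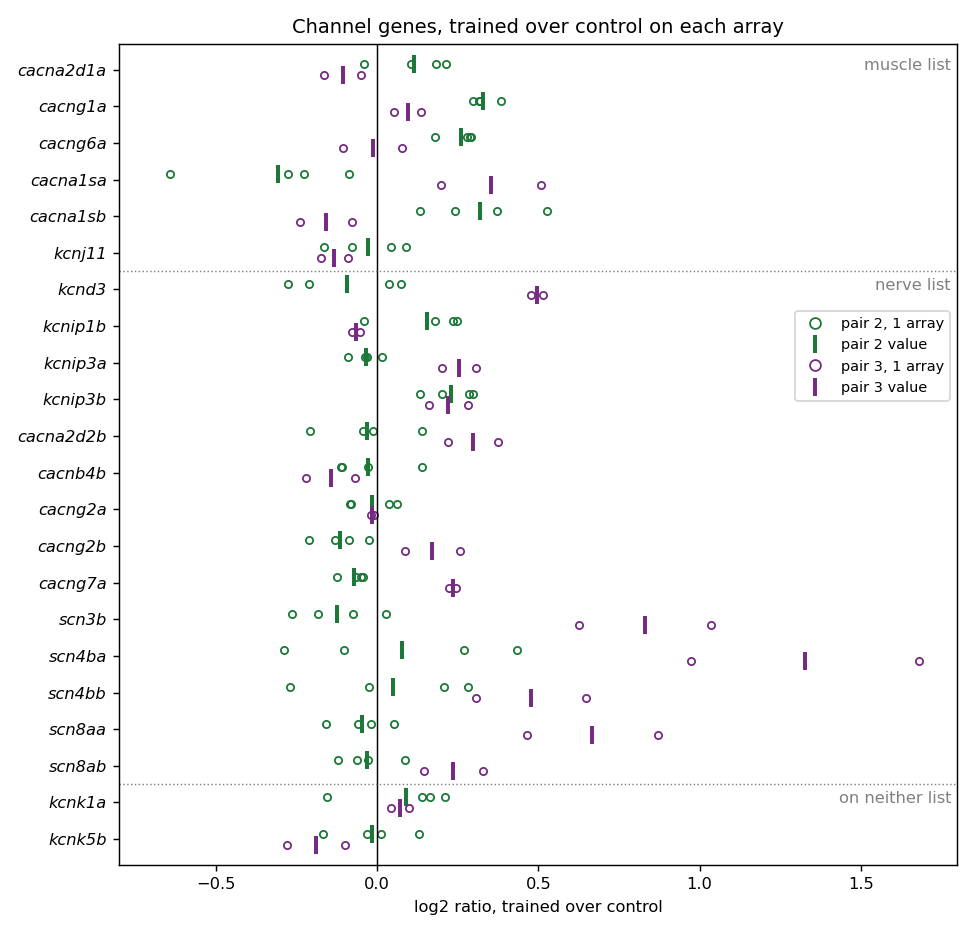
Log2 ratios of trained over control (horizontal axis) are shown for the 22 channel genes, with open circles for single arrays, upright ticks for the value of a pair, green for pair 2 and purple for pair 3. The pair 3 arrays of scn4ba, scn3b, scn8aa, scn4bb and kcnd3 lie to the right of all their pair 2 arrays. So do those of kcnip3a, scn8ab, cacng7a, cacna2d2b, cacng2b and cacna1sa. Those of cacng1a, cacng6a, cacna1sb, cacna2d1a and kcnip1b lie to the left of all their pair 2 arrays. Of the genes shown only cacng1a and kcnip3b lie above 0 on all 6 arrays.

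The medians of each channel list stood near those of the markers of its tissue. For the 23 tested of 28 skeletal muscle markers the median was 0.19 in pair 2 and -0.055 in pair 3, beside the 0.19 and -0.061 of the muscle channels. The markers spread far more widely about that median in pair 3, from -1.24 to 1.63. There 7 of them were higher (13.2% of all genes) and 4 lower (7.71%) by 1.5-fold or more. By limma, 5 of 23 had an unadjusted p under 0.05 (3.99% of all genes). For the 22 tested of 29 neuron and glia markers the median was -0.051 and 0.19, beside -0.032 and 0.24 for the nerve channels. These markers also went both ways, with 6 above 0 (36.6% of all genes) and 8 below 0 (24.7%) in both pairs. In pair 3 they ran from -0.73 to 0.74, with 3 higher (13.2% of all genes) and 2 lower (7.71%) by 1.5-fold or more. The 3 with the smallest p were sox10 (-0.27 and -0.61), tubb5 (0.22 and 0.74) and gfap (-0.061 and -0.73). The mean log2 level of the muscle markers was 13.29 in C2, 13.47 in T2, 12.96 in C3 and 13.02 in T3, that is, higher in both pools numbered 2. The mean level of the neuron and glia markers was 8.34 in C2, 8.30 in T2, 7.98 in C3 and 8.08 in T3, also higher in both pools numbered 2. The nerve channels did not share that order, with mean levels of 7.26 in C2, 7.26 in T2, 7.08 in C3 and 7.44 in T3. All 23 muscle markers on the array were kept, and of the 23 neuron and glia markers on it only sypa was not. The part of tissue content in the channel values was not tested.

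**Figure D4:**
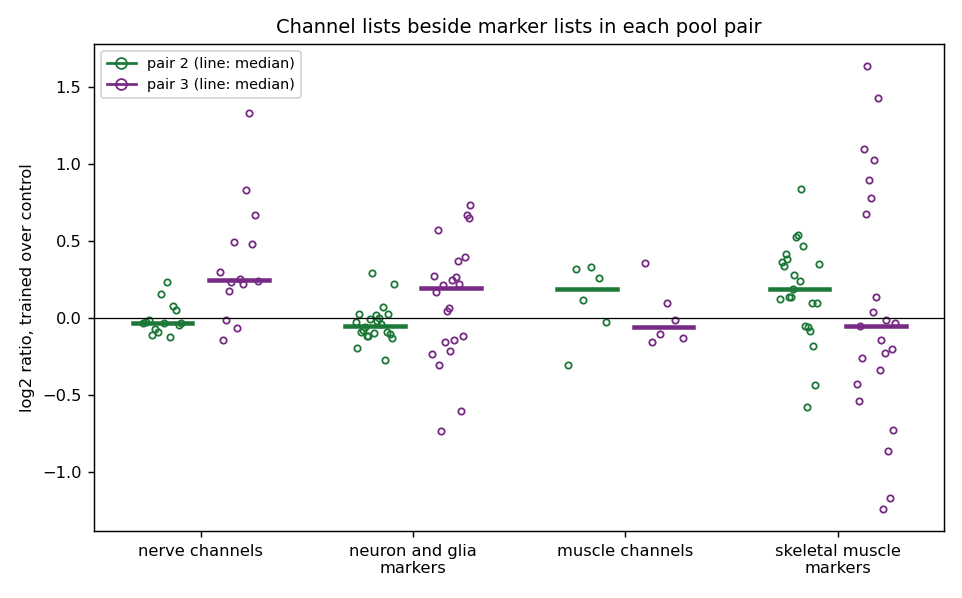
Log2 ratios of trained over control (vertical axis) are shown for the genes of 4 lists, with a circle for each gene, a bar for the median, green for pair 2 and purple for pair 3. The nerve channels and the neuron and glia markers have medians of -0.032 and -0.051 in pair 2 and of 0.24 and 0.19 in pair 3, and the muscle channels and skeletal muscle markers have 0.19 and 0.19, then -0.061 and -0.055.

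Markers of other tissues were checked as well. All 7 epidermis markers on the array were kept, with medians of 0.16 in pair 2 and 0.23 in pair 3. Of 5 heart markers on the array only tnnt2a was kept, with log2 ratios of -0.071 and -0.21, and the heart myosin genes myl7 and myh6 fell short of the rule. Of 9 hair cell markers on it 3 were kept, with medians of -0.11 and -0.032, and of 5 pigment cell markers 3 were kept, with medians of -1.11 and -1.71. Their part in the channel values was not tested either.

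The 3 largest pair values of the group belonged to sodium channel genes, all in pair 3. Sodium channel beta subunits are single-pass membrane proteins that bind the pore, speed its gating and hold it at the cell surface. The beta subunit gene scn4ba gave log2 ratios of -0.10 and -0.29 on the pair 2 arrays with trained RNA in Cy5, of 0.27 and 0.43 on those with it in Cy3, and of 0.97 and 1.68 on the pair 3 arrays. In pair 2 its sign followed the dye, and the mean over both orientations was 0.078, while in pair 3 both orientations lay high, with a mean of 1.33, or 2.51-fold. That pair 3 value was 0.57 with local backgrounds as deposited and 0.75 with the mean over its probes, which put the mean over pairs at 0.32 and 0.39. Its mean over the pairs was 0.70 ± 0.32 (moderated SE, n = 2 pairs, limma adjusted p = 0.752).

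The levels in single pools show where that difference lay. The log2 level of scn4ba was 9.79 in C2, 9.86 in T2, 8.59 in C3 and 9.92 in T3. The trained pool of pair 3 was level with both pools of pair 2, and C3 stood alone, with a log2 difference of C3 minus C2 of -1.196. In single channels the readings of C3 ran from 8.27 to 8.92 and those of the other 3 pools from 9.54 to 10.02, without overlap. Pool levels depend on the scaling between arrays: with none, C3 remained the lowest pool at -1.78 from C2, but T3 lay at -0.53 from T2. The 4 kept probes of scn4ba did not agree in size. Their pair 3 log2 ratios were 1.33, 0.82, 0.65 and 0.21 from the brightest to the dimmest, and their pair 2 ratios 0.078, 0.030, 0.13 and -0.12.

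The pore gene scn8aa encodes a channel of the type known as Nav1.6, which in mammals is the main sodium channel of axon initial segments and nodes. It had log2 ratios of -0.021 and -0.16 on the pair 2 arrays with trained RNA in Cy5, of -0.059 and 0.053 on the others of pair 2, and of 0.46 and 0.87 in pair 3. Its log2 level was 7.44 in C2, 7.39 in T2, 6.84 in C3 and 7.51 in T3. As with scn4ba, C3 stood alone, with readings of 6.65 and 7.04 against 7.31 to 7.52 in the other pools, though with no scaling between arrays T3 was also lower than T2 (-0.26). The mean over pairs was 0.31 ± 0.23 (moderated SE, n = 2 pairs, limma adjusted p = 0.772). Its pair 3 value ran from 0.23 with local backgrounds as deposited to 1.22 with processed signals.

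The second scn4b copy, scn4bb, was dim and was above background on 4 of 6 arrays in control fins and on all 6 in trained fins. Its log2 ratios were 0.048 in pair 2, with single arrays from -0.27 to 0.28, and 0.48 in pair 3. Its level was 6.70 in C2, 6.75 in T2, 6.30 in C3 and 6.78 in T3. The gene passed the rule through the trained channel alone, which favours a low control level, so its low C3 is no further case beside scn4ba and scn8aa. The readings of C3 (6.26 and 6.33) lay under all readings of the other pools, the lowest of which was 6.41. With no scaling between arrays T3 minus T2 turned to -0.22, and with processed signals C3 minus C2 moved from -0.41 to -1.43. The mean log2 ratio was 0.26 ± 0.19 (moderated SE, n = 2 pairs, limma adjusted p = 0.77). It was 1.1985 with processed signals, where pair 3 gave 2.06, and 0.094 with local backgrounds as deposited, where pair 3 gave 0.14. The paralogue of scn8aa, scn8ab, had -0.032 in pair 2 and 0.24 in pair 3, near the dim end. It was above background on 5 of 6 arrays in control fins and on all 6 in trained fins. So scn8ab too passed the rule through the trained channel alone and is no further case.

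For scn3b and kcnd3 the highest pool was T3, though its readings overlapped those of other pools. The beta subunit gene scn3b had log2 ratios of -0.18 and -0.27 on the pair 2 arrays with trained RNA in Cy5, of -0.074 and 0.027 on the others of pair 2, and of 0.63 and 1.04 in pair 3. Its levels were 9.34 in C2, 9.22 in T2, 9.36 in C3 and 10.19 in T3, so here the control pools were alike and T3 was high. The readings spread widely within a pool, from 9.64 to 10.74 in T3 and from 9.02 to 9.71 in C3, and the lower T3 reading lay within the readings of T2 and C3. With no scaling between arrays both differences between pool numbers moved down, C3 minus C2 to -0.56 and T3 minus T2 from 0.97 to 0.39. In that setting both pools numbered 3 lay under both numbered 2 for 75.8% of all genes. The mean over pairs was 0.35 ± 0.27 (moderated SE, n = 2 pairs, limma adjusted p = 0.775). In pair 3 it had 0.42 with local backgrounds as deposited and 0.45 with median centring, in place of 0.83.

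The gene kcnd3 encodes Kv4.3, a fast-inactivating potassium channel that shapes firing in neurons and heart muscle, and was the 1 kept gene of the Kv1 to Kv4 families. It had log2 ratios of 0.036 and 0.072 on the pair 2 arrays with trained RNA in Cy5, of -0.28 and -0.21 on those with it in Cy3, and of 0.51 and 0.48 in pair 3. Its sign in pair 2 followed the dye. Its levels were 7.92 in C2, 7.82 in T2, 8.13 in C3 and 8.63 in T3, with overlapping readings, and with no scaling between arrays C3 minus C2 turned from 0.21 to -0.29. The mean was 0.20 ± 0.21 (moderated SE, n = 2 pairs, limma adjusted p = 0.816). Pair 3 gave 0.26 with local backgrounds as deposited and 0.20 with median centring, in place of 0.50.

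**Figure D5:**
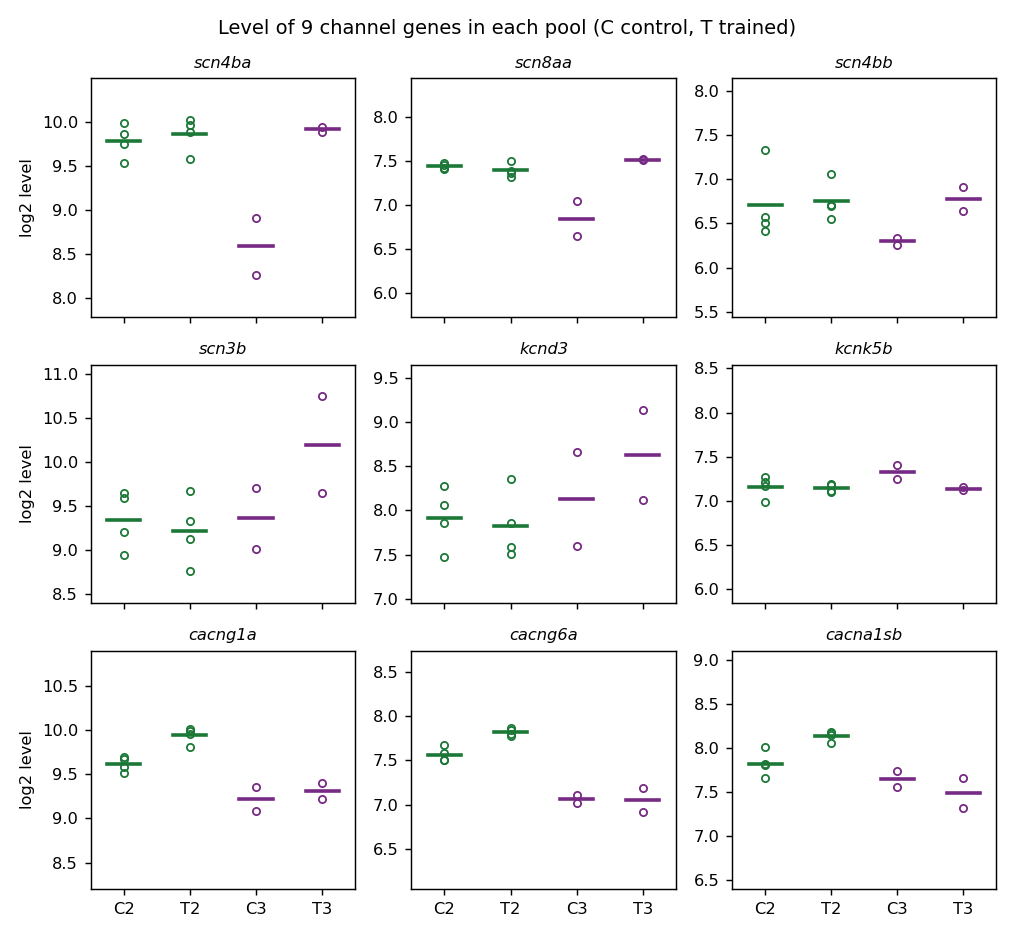
The normalised log2 level (vertical axis, the same span in each panel) of 9 channel genes is shown in pools C2, T2, C3 and T3, with circles for single array channels and bars for the pool value. C3 stands below the other pools for scn4ba, scn8aa and scn4bb, of which scn4bb passed the rule through the trained channel alone. The pool value of T3 is highest for scn3b and kcnd3, with readings that overlap those of other pools. Both pools numbered 3 lie below both numbered 2 for cacng1a, cacng6a and cacna1sb.

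Over the 22 channel genes, C3 was the lowest of the 4 pools for 8 (41% of all genes) and T3 the highest for 10 (34.4% of all genes). Both counts take in scn4bb and scn8ab, which passed the rule through the trained channel alone. Neither share was far from that of all genes, and both moved with the scaling: with none between arrays the counts were 14 (53.9% of all genes) and 3 (7.79%). The single gene patterns above were picked for their size in pair 3 and describe these pools only.

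Kv4 channels work with small calcium-binding partners of the kcnip family, and 3 of their genes were kept. Of these, kcnip3b was 1 of the 2 channel genes above 0 on all 6 arrays (11.8% of all genes), and 0 channel genes were below 0 on all 6 (8.37%). Its log2 ratios were 0.20 and 0.28 on the pair 2 arrays with trained RNA in Cy5, 0.13 and 0.30 on the others of pair 2, and 0.28 and 0.16 in pair 3. The pair values were 0.23 (1.17-fold) and 0.22 (1.16-fold). Its levels were 6.76 in C2, 6.77 in C3, 6.99 in T2 and 6.99 in T3, so both trained pools lay above both control pools, while single readings overlapped. With no scaling between arrays T3 (6.77) lay under C2 (6.87). The pair 3 ratio of kcnip3b ran from 0.13 with local backgrounds as deposited to 0.69 with processed signals. The mean was 0.22 ± 0.17 (moderated SE, n = 2 pairs, limma adjusted p = 0.772), where the SE is drawn towards the spread of all genes. The other kept probe of kcnip3b gave -0.011 and 0.068, so the difference was seen by 1 of 2 probes. Its relative kcnip3a had -0.036 and 0.25, and kcnip1b had 0.15 and -0.065, each of them with opposite signs in the pairs.

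The muscle channels centre on the skeletal muscle calcium channel, which senses voltage in the T-tubule and passes the signal to the calcium release channel of the sarcoplasmic reticulum. Its pore is encoded by cacna1sa and cacna1sb, and the copies had opposite signs. The gene cacna1sb had log2 ratios of 0.37 and 0.53 on the pair 2 arrays with trained RNA in Cy5, of 0.13 and 0.24 on the others of pair 2, and of -0.079 and -0.24 in pair 3. The gene cacna1sa had -0.23 and -0.28, then -0.086 and -0.64 on the other pair 2 arrays, and 0.20 and 0.51 in pair 3. All 4 arrays of pair 2 put cacna1sb above 0 and cacna1sa below it, and both arrays of pair 3 put them the other way round. The means over pairs were 0.079 ± 0.20 for cacna1sb (moderated SE, n = 2 pairs, limma adjusted p = 0.925) and 0.022 ± 0.22 for cacna1sa (limma adjusted p = 0.982). Each was read by 1 probe, and cross-hybridisation between the copies was not tested.

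The gamma family genes listed as muscle channels, cacng1a and cacng6a, showed less spread between arrays. Of these, cacng1a lay above 0 on all 6 arrays, with log2 ratios of 0.38 and 0.32 on the pair 2 arrays with trained RNA in Cy5, of 0.30 and 0.32 on the others of pair 2, and of 0.14 and 0.053 in pair 3. The pair values were 0.33 (1.26-fold) and 0.094 (1.07-fold), and the other kept probe gave 0.40 and 0.29. The sign in pair 3 depended on the normalisation: with median centring in place of loess cacng1a had -0.23 there, with a median of -0.072 over all genes. The mean was 0.21 ± 0.17 (moderated SE, n = 2 pairs, limma adjusted p = 0.783). The gene cacng6a had 0.26 in pair 2, with 4 arrays from 0.18 to 0.29, and -0.014 in pair 3, with 1 array on either side of 0. Its mean was 0.12 ± 0.18 (moderated SE, n = 2 pairs, limma adjusted p = 0.865).

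The levels of these genes differed between pool numbers. The log2 level of cacng1a was 9.62 in C2 and 9.94 in T2, against 9.22 in C3 and 9.31 in T3. That of cacng6a was 7.56 and 7.82 in the pools numbered 2 and 7.07 and 7.05 in those numbered 3, and that of cacna1sb 7.82 and 8.14 against 7.65 and 7.49. For all 3 genes both pools numbered 3 lay under both numbered 2. That order was found for 5 of the 22 channel genes, near the share of all genes (23.9%). The other channel genes with it, cacng2a and kcnip1b, are on the nerve list. The mean levels of the skeletal muscle markers and of the neuron and glia markers given above had that order too. The other muscle channels did not share that order. The level of kcnj11 was higher in the pools numbered 3, at 6.39 in C2 and 6.36 in T2 against 6.76 in C3 and 6.63 in T3. For cacna1sa T3 (7.33) lay above T2 (7.05), and for cacna2d1a C3 (6.49) lay above C2 (6.37). On the log2 scale C3 minus C2 ran from -0.50 to -0.17 and T3 minus T2 from -0.77 to -0.63 over cacng1a, cacng6a and cacna1sb. Each was larger in size than the mean log2 ratio of trained over control of the same gene. For cacna1sb and cacng6a that mean joins pair values of opposite signs. The pair 2 ratio of cacna1sb, 0.32, was larger in size than its C3 minus C2 of -0.17. With no scaling between arrays C3 minus C2 ran from -0.99 to -0.62 and T3 minus T2 from -1.22 to -1.10 over the same genes. Both pools numbered 3 then lay under both numbered 2 for 17 of the 22 channel genes and 75.8% of all genes, so that count says nothing about the channels.

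The other muscle channels lay close to 0 with the main processing. The alpha2delta gene cacna2d1a, which carries the channel to the membrane, had a log2 ratio of 0.11 in pair 2 and -0.11 in pair 3, with a mean of 0.0039 ± 0.17 (moderated SE, n = 2 pairs, limma adjusted p = 0.996). The gene kcnj11 encodes the pore of the ATP-sensitive potassium channel, which ties membrane potential to the energy state of the cell. It had -0.028 and -0.13, with a mean of -0.081 ± 0.17 (moderated SE, n = 2 pairs, limma adjusted p = 0.91). With processed signals or the deposited value table the pair 3 value was -0.82 for kcnj11 and 0.14 for cacna2d1a.

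Genes that work with the muscle calcium channel, at the neuromuscular junction or in calcium release, were tested for 14 of 27 listed. Of these, 0 had an unadjusted p under 0.05, 5 lay above 0 in both pairs (36.6% of all genes) and 5 below 0 in both (24.7%), and the medians were 0.058 in pair 2 and -0.068 in pair 3. In pair 3, 1 was at least 1.5-fold higher (13.2% of all genes) and 2 at least 1.5-fold lower (7.71%). The 3 with the smallest p were all above 0 in both pairs. The junctophilin gene jph1b, whose product ties T-tubules to the sarcoplasmic reticulum, had 0.12 and 1.44. The calsequestrin gene casq1b, which encodes the calcium buffer of the store, had 0.28 and 0.48, and stac3, which encodes a partner the muscle calcium channel needs to couple to release, had 0.24 and 0.44. Their mean log2 ratios were 0.78, 0.38 and 0.34, with limma adjusted p = 0.752 for each.

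The remaining nerve genes encode accessory subunits of calcium channels and synaptic receptors. The alpha2delta gene cacna2d2b had a log2 ratio of -0.031 for pair 2 and of 0.30 for pair 3. The gamma family genes cacng2a, cacng2b and cacng7a, whose mammalian counterparts carry AMPA receptors to synapses, had -0.017 and -0.015, then -0.11 and 0.17, then -0.072 and 0.23. The beta subunit gene cacnb4b had -0.029 and -0.14 and was above background on 4 of 6 arrays in trained fins. With processed signals the pair 3 values of these genes were larger in size, at -0.98 for cacnb4b and 0.74 for cacna2d2b. They were 0.18, 0.35 and 0.99 for cacng2a, cacng2b and cacng7a. The leak channel gene kcnk1a, on neither list, had 0.089 and 0.071.

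Dimness and the processing limit these values. Of the 22 genes, 12 had a mean log2 level under 7, near the floor of 5.64 set by the offset of 50 that background correction adds. The nerve median in pair 3 was 0.24 with that offset, 0.47 with an offset of 10, 0.72 with the scanner software's processed signals and 0.13 with local backgrounds as deposited.

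The share of probes above background ran from 54.3% to 81.2% over channels and arrays. Over all genes the SD of log2 ratios was 0.152 for pair 2 and 0.528 for pair 3, and the SD of the difference between control pools, 0.424, was of the same order. Arrays of pair 3 correlated over genes at 0.889 across dye orientations, where those of pair 2 gave 0.083 to 0.158 across orientations and 0.776 to 0.86 within one. Pair 3 was hybridised once per orientation, each on its own slide, so slide and dye cannot be told apart within it. On slide 1 alone the nerve and muscle medians were 0.29 and -0.00091 in pair 3 and -0.051 and 0.19 in pair 2, and on slide 2 alone 0.25 and -0.070, and -0.020 and 0.18.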

How the data were processed

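Fins of trained and control larvae were compared on 6 Agilent 2-colour arrays with 100 ng of labelled RNA per sample, per the labels' protocols. The authors used Agilent Feature Extraction 10.5.1.1, per the file headers and processing notes. For each spot the deposited files give raw intensity, processed intensity and the log10 of red over green signal. The deposited value table holds these same log10 values, with column medians of 0. Median signals were corrected with normexp (offset 50) after local backgrounds that lay over 10 median absolute deviations away from their array's median had been replaced by it, a step chosen with the data seen. Arrays were normalised by loess, with control and flagged spots at weight 0. Ratios were expressed as log2 of trained over control, then averaged within and across dye orientations. Pool levels are log2 intensities of separate channels after Aquantile scaling between arrays. Genome build and coordinates were not used.

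Unversioned accessions were looked up in the RefSeq gene list of assembly GRCz12tu, naming 25173 of 43603 probes; the rest kept the identifier of the file. Tests used R 4.3.3, limma 3.58.1 and the data.table package (version 1.17.8), with eBayes on the 2 pair values, two-sided, and Benjamini-Hochberg adjustment over all genes at 0.05. The step was tested on simulated data. The members and the 11 gene lists were chosen with earlier results of these data known. Full values are given for kept muscle and fin growth channels, for the 6 nerve channels with the smallest p, and for up to 6 members per direction of the same sign on all arrays. Per list of other genes the 3 with the smallest p could be named. The lists of heart, hair cell, pigment cell, epidermis, muscle and neuron markers check the tissue. P-values set the mean of the 2 pair ratios against their spread, which eBayes draws towards that of all genes. A level difference between pool numbers that trained and control pools share cancels in these ratios. Such a difference in a single condition enters their spread. The number of pool pairs limits the precision. Alternatives covered background, offset, normalisation, filter, probe choice, repeats, pairs, slide and pairing.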

Additional observations from a re-analysis of the deposited data

How the results depend on the processing

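In each alternative that gave p-values, 0 channel genes had an adjusted p under 0.05. Over all genes, 3 were higher and 6 lower with 6 arrays and the pair as a random block, 27 and 33 with slide as a block on arrays taken as independent, and 1 and 6 with an intensity trend and robust prior. At an unadjusted p under 0.05 there was 1 channel gene with processed signals, the deposited value table, scale normalisation, no filter or the intensity trend, and 2 with slide as a block. Over all genes tested the shares in those settings were 8.17%, 8.34%, 9.73%, 2.59%, 10.8% and 20.2%. With no filter the dim channel genes were counted too, among 28374 genes tested. The nerve median over both pairs was 0.34 with processed signals and with the value table. Without the replicate block, on 4 unpaired pools, 0 genes passed and the median of the channel genes was 0.091. Leaving out 1 pair gave medians from -0.022 to 0.20 for channel genes, from -0.061 to 0.19 for muscle and from -0.032 to 0.24 for nerve. These are the medians of the single pairs.

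With 2 pairs, leaving out 1 returns the value of the other, so the opposite signs of 13 genes given above come back. Leaving out 1 pair gave -0.095 to 0.50 for kcnd3, -0.065 to 0.15 for kcnip1b, -0.036 to 0.25 for kcnip3a, -0.11 to 0.11 for cacna2d1a, -0.031 to 0.30 for cacna2d2b, -0.11 to 0.17 for cacng2b, -0.014 to 0.26 for cacng6a, -0.072 to 0.23 for cacng7a, -0.31 to 0.35 for cacna1sa, -0.16 to 0.32 for cacna1sb, -0.12 to 0.83 for scn3b, -0.046 to 0.67 for scn8aa and -0.032 to 0.24 for scn8ab. With both pairs in use 18 of 22 genes kept their sign throughout. The others turned near 0: cacna2d1a to -0.0033 with median centring and -0.0030 on slide 1, cacng2a to 0.092 with processed signals or the value table and 0.0079 without background subtraction, and cacng2b to -0.035 with backgrounds as deposited, -0.038 with median centring, -0.019 with slide as a block and -0.017 on slide 1. The gene cacna1sa turned to -0.11, -0.037, -0.038 and -0.088 with backgrounds as deposited, median centring, scale normalisation and slide as a block. Median centring moved the median of all genes in pair 3 from 0.051 to -0.072. Pool levels were also computed under 3 scalings chosen after seeing the data. Without scaling between arrays, T3 minus T2 turned to -0.53 for scn4ba, -0.26 for scn8aa and -0.22 for scn4bb, and C3 minus C2 to -0.56 for scn3b and -0.29 for kcnd3. The same setting put both pools numbered 3 under both numbered 2 for 75.8% of all genes. These shifts are therefore not particular to the channels. The cause of the differences between pools was not tested. Dim signals over background limit what these arrays can show.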
